A study of Mus musculus with 56 samples.

Results

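Genes that mark dendritic cells were followed in the blood of mice carrying the bone-seeking beta emitter strontium-90 (90Sr). The set holds 9 genes, Cd209a, Flt3, Siglech, Ccr9, Itgax, Clec9a, Xcr1, Batf3 and Zbtb46, out of 30199 gene names on the array. It is defined by gene name and was chosen with earlier results of these data known. Cd209a was lower in 90Sr-injected mice at every time point, by 6.88- to 10.9-fold on the scale of array-centered signal with many injected mice near background, and all 28 injected mice lay below all controls of their own day. Itgax and Batf3 were lower by less and passed the threshold at 1 and 2 of the 5 days. Zbtb46 was higher late in the study, Siglech was called lower by one probe at days 7 and 25 and higher by another at day 30, and no call was made for Flt3, Clec9a or Ccr9. Xcr1 was not measurable.

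Blood came from C57BL/6 mice about 10 to 12 weeks old. The injected mice had received 200 kBq of 90Sr chloride through the tail vein and the controls the saline vehicle, and both were killed 4, 7, 9, 25 or 30 days later, with controls for each day. There were 4 control and 4 injected mice at day 4 and 6 of each at the other days, with 1 one-color array per mouse and 56 arrays in all. RNA was taken from whole blood and depleted of globin transcripts. In such bulk RNA, fewer cells of a type and less RNA per cell cannot be told apart.

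Dendritic cells take up antigen and present it to T cells. They arise in bone marrow from precursors that depend on the receptor Flt3, pass through the blood in small numbers, and settle in tissues. Conventional type 1 cells rely on the factor Batf3 and bear Clec9a and Xcr1, conventional type 2 cells are a more varied group, and plasmacytoid cells, marked in mice by Siglech and by Ccr9 once mature, secrete type I interferon. Itgax encodes CD11c, the integrin used most often to recognize dendritic cells but also carried by some monocytes and natural killer cells. Cd209a, the mouse relative of the human lectin DC-SIGN, is found on a subset of dendritic cells that develops from monocytes and on some type 2 cells. Zbtb46 is a transcription factor of conventional dendritic cells that is also active in erythroid precursors and in endothelium.

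Each gene was read by the 60-base probes listed here by their first 30 bases, since the choice of probe decides what is seen for Siglech. Positions are for whole probes, as the array annotation gives them on mm9, whose exon and UTR annotation was not used here, and the strand is that of the gene.
Cd209a, chr8:3743481-3743540, minus strand: ggacatggtgagcctcaatgttatagacct
Itgax, chr7:135294052-135294111, plus strand: tcccatctacttttgcaacgttggaattga
Batf3, chr1:192932528-192932587, plus strand: ctcctttgtccggctcggaaccttggtttg
Ccr9, chr9:123690334-123690393, plus strand: caggcaagaggcacttgctgcaggttctcc
Flt3, chr5:148142576-148142635, minus strand: agatgctgtctgccattactccaaagtgac
Clec9a, chr6:129372492-129372551, plus strand: gcaatagtctgtaacgctttgcagatttca
Zbtb46, chr2:181146404-181146463, minus strand: tgctcggtgatgatggctcacttctgttcg
Xcr1, chr9:123761482-123761541, minus strand: ttttttaagtgtctgttaatgagggggaaa
Siglech, first probe (A_55_P2165790), chr7:63033826-63033885, plus strand: acaacagttaaattcccttgcagagacatc
Siglech, second probe (A_55_P2141013), chr7:63034088-63034147, plus strand, bases 31 to 60: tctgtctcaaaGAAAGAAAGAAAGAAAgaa
Capitals in the last of these mark a run of 16 bases that is also present in 6 probes of other genes. Counting any run of 16 bases along the whole probe, on either strand, 12 probes of other genes share one. No such run of 16 bases or more was shared by any of the other probes shown. The array carries 16 probes for the 9 genes, and the 6 not shown were well above background on few or none of the arrays.

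Levels are given as log2 of the processed signal minus the median log2 signal of the array, so that 0 is the level of the median spot and levels of different genes cannot be compared. A probe is called well above background where the scanner software flagged it so. Between 14389 and 24698 spots per array carried this flag, and the array median itself was lower in injected mice, at 2.87 to 4.22 (median 3.56) on the log2 scale against 3.49 to 4.79 (median 4.29) in controls. The 56 arrays lay on 14 slides. Both groups of day 4 had separate slides, and slide and group cannot be told apart there. From day 7 on, 2 control and 2 injected mice of each day shared a slide, which allowed a comparison within a slide. Of the 9 genes, 8 passed the filter on dim probes and 6 of these also the filter on variation, Cd209a, Itgax, Batf3, Ccr9, Zbtb46 and Siglech by its second probe. A call needed an unadjusted limma p under 0.001 and at least a 2-fold change. By that rule 1, 1, 2, 1 and 2 of the 6 genes were lower at the 5 days in order, where 23.1%, 16.1%, 17.9%, 26.5% and 21.3% of all genes were lower. Higher were 0 of the 6 at days 4, 7, 9 and 25 and 2 at day 30, against 2.80%, 3.47%, 5.44%, 7.48% and 19.7% of all genes. The balance of lower and higher genes turned with the scaling. On the 75th percentile, 1123, 698, 908, 1116 and 2222 genes were called lower in order of day and 2676, 2155, 2302, 4251 and 3938 higher. With quantile normalization 1651, 945, 1456, 1518 and 2761 were lower and 1072, 967, 945, 2029 and 2652 higher. None of the 6 was called lower at all 5 days, as 8.40% of all genes were. Lower at 1 or more days were 3 of the 6, against 34.4%, and higher at 1 or more days were 2, against 28.5%. As counts, the calls of the 6 genes thus lay close to those of the array as a whole.

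Cd209a had the largest decrease among the 9 genes. At day 4 the controls were at 2.84, 2.86, 3.27 and 1.65 and the injected mice at 0.79, -1.32, 1.20 and -1.61. The groups did not overlap, although 1 control lay close to the highest injected mice. The log2 change was -2.89 (SE 0.64, Benjamini-Hochberg adjusted p = 0.00342 from limma). Its unadjusted p was just outside the threshold, which was passed when replicate 1 or replicate 3 of the injected mice was left out.

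At day 7 the controls for Cd209a ran from 2.32 to 3.28 (median 2.78) and the injected mice from -1.37 to 1.12 (median -0.68). At day 9 they ran from 2.50 to 3.902 (median 3.15) and from -1.18 to 0.82 (median 0.25). The groups were well apart on both days, and the injected mice had the wider spread. The log2 changes were -3.15 (SE 0.40, adjusted p = 0.000141) and -2.98 (SE 0.33, adjusted p = 2.61e-05, both from limma), and Cd209a was called at both. Within the slide shared by both groups the change was -2.84 at day 7 and -2.49 at day 9. The day 7 call was lost when the fit held the slide as a fixed block.

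At day 25 the control mice for Cd209a were tightly grouped, from 3.26 to 3.78 (median 3.52), whereas the injected mice ran from -1.73 to 3.03 (median 0.70). The 2 injected mice that shared a slide with controls had the highest levels, 3.03 and 2.65, against 3.78 and 3.26 for the controls beside them, a difference of -0.68. The other 4 injected mice, all on another slide, were at 0.75, 0.65, -0.92 and -1.73. The log2 change over all 12 mice was -2.78 (SE 0.64, adjusted p = 0.00151 from limma). This call was lost in the fit that held the slide as a fixed block. It was also lost, with the unadjusted p just over the threshold, without any one of control replicates 1, 2, 4 or 5 or injected replicates 3, 4 or 5. The part of the slide in the day 25 decrease was not tested further.

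At day 30 the controls for Cd209a ran from 0.98 to 4.05 (median 3.05) and the injected mice from -1.51 to 0.93 (median -0.76). The lowest control was barely above the highest injected mouse, and the rest of the controls were clearly separated. The log2 change of -3.44 (SE 0.51, adjusted p = 9.46e-05 from limma) was the largest of the 5 days. Within the shared slide it was -2.05, and the call was lost in the fit with a fixed block for the slide or for the scan day. Across days no difference in the effect on Cd209a was detected (limma's F test of the interaction between injection and day, adjusted p = 0.956), and none in its control level (adjusted p = 0.65).

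The depth of the decrease in Cd209a was limited by the lower end of the array. Its probe was well above background in 28 of 28 controls but in 7 of 28 injected mice, and in none of the 6 at day 7. For that day the values allow only a bound, and Cd209a was at least 4.65-fold lower in injected mice (means of 2.77 and -0.38). The size of the change also followed the processing, from -3.51, -5.04, -4.07, -3.50 and -4.07 at the 5 days in order with spike-in scaling to -0.65, -0.91, -1.20, -0.53 and -0.74 with normexp background correction, where Cd209a was called at day 9 alone. The other Cd209a probe never stood well above background.

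Itgax, encoding CD11c, was well above background on all 56 arrays. At day 4 the controls were at 3.41, 3.32, 3.55 and 3.53 and the injected mice at 2.31, 2.11, 2.22 and 1.82. The groups were far apart relative to their spread, and Itgax was called with a log2 change of -1.34 (SE 0.16, adjusted p = 0.000197 from limma). On 3 other scalings of the arrays, by the 75th percentile, by the median of detected probes or by quantiles, the change was -0.86, -0.93 and -0.85 and under 2-fold.

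At the later days Itgax was not called. At day 7 the controls ran from 2.70 to 3.18 (median 2.82) and the injected mice from 1.71 to 2.69 (median 2.33). The groups just failed to touch, and the log2 change was -0.61 (SE 0.18, adjusted p = 0.00932 from limma). At days 9, 25 and 30 the change was -0.53 (SE 0.24), -0.98 (SE 0.28) and -0.92 (SE 0.31), with 4, 4 and 3 of 6 injected mice below all controls. The adjusted p from limma was 0.0779, 0.00574 and 0.014. At day 25 the call was gained without injected replicate 4. Within the shared slides the changes at days 7, 9, 25 and 30 were -0.74, -0.86, -0.50 and -0.35. No difference between days was detected for the effect on Itgax (interaction, adjusted p = 0.435 from limma).

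Batf3, a basic leucine zipper factor needed for conventional type 1 dendritic cells, was well above background in 28 of 28 controls and 16 of 28 injected mice. At day 4 the controls were at 2.01, 1.94, 1.76 and 0.997 and the injected mice at 1.01, 0.75, 0.97 and 1.57, which overlapped. At day 7 the groups overlapped as well, since 1 injected mouse stood above all controls at 2.45 while the median of the 6 was 0.12. The log2 changes of -0.60 (SE 0.26) and -0.74 (SE 0.40) were not called.

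Separation for Batf3 was complete at days 9 and 30. At day 9 the controls ran from 1.34 to 2.06 (median 1.71) and the injected mice from 0.16 to 0.92 (median 0.80), a log2 change of -1.01 (SE 0.21, adjusted p = 0.00107 from limma). At day 30 they ran from 1.37 to 3.39 (median 2.26) and from 0.11 to 1.35 (median 0.92), a change of -1.49 (SE 0.30, adjusted p = 0.000507 from limma). Between these, at day 25, the controls were at 1.76 to 2.44 (median 2.21) and the injected mice at 0.17 to 1.93 (median 1.19). The day 25 change of -1.03 (SE 0.26, adjusted p = 0.00306 from limma) was not called, but was without injected replicate 1. The call at day 9, at the edge of 2-fold, was lost without control replicate 1, 3 or 5 or injected replicate 5 or 6. Scaled by the 75th percentile, the median of detected probes or quantiles, the day 9 change was -0.61, -0.72 and -0.77 and under 2-fold. On the same scalings the day 30 change was -1.31, -1.45 and -1.36. At day 7 leaving out injected replicate 6, the mouse at 2.45, gave a call. Within the shared slides Batf3 changed by 0.28, -0.97, -0.46 and -1.37 at days 7, 9, 25 and 30. The 2 injected mice on the day 7 slide were at 0.26 and 2.45 and the controls beside them at 0.92 and 1.24, so that the value of 0.28 rests on replicate 6. The calls of Batf3 at days 9 and 30 were lost in the fit with a fixed block for the slide, and that at day 30 also with the scan day as the block. Control levels of Batf3 differed between days by up to 1.04 (adjusted p = 0.0229 from limma), as did those of 48.2% of all genes.

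Ccr9, the chemokine receptor that leads cells to the gut and the thymus, was not called at any day. Its day 4 controls were at 2.03, 1.95, 2.19 and 1.504 and the injected mice at 1.59, 1.42, 1.81 and 1.84, and these overlapped. The clearest difference was at day 7, with controls from 1.69 to 3.41 (median 2.05) and injected mice from 0.56 to 2.09 (median 0.90). Of the 6 injected mice, 5 lay below all controls there, and the log2 change was -1.07 (SE 0.31, adjusted p = 0.00798 from limma). It was called without injected replicate 3. At days 4, 9, 25 and 30 the change was -0.25, -0.50, -0.53 and -0.52, and within the shared slides it was -0.90, -0.76, -0.19 and -0.43 at days 7, 9, 25 and 30. No difference of the effect between days was detected (interaction, adjusted p = 0.603 from limma).

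Siglech, a sialic acid binding lectin of plasmacytoid cells, was read by 2 probes that were often above background, and they were called at different days and in different directions. The first, the dimmer of them, was well above it in 23 of 28 controls and 5 of 28 injected mice. At day 4 its controls were at 1.26, 1.18, 1.68 and 0.31 and its injected mice at -0.47, -0.09, 0.16 and -0.37, without overlap.

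At day 7 the first Siglech probe read -0.03 to 0.92 (median 0.55) in controls and -1.29 to 0.26 (median -0.67) in injected mice. At day 9 it read 0.72 to 2.85 (median 1.40) and -0.88 to 0.85 (median 0.02), and at day 25 it read 1.28 to 2.53 (median 1.89) and -0.02 to 0.82 (median 0.59). The groups were separate at day 25, and 5 of 6 injected mice lay below all controls at days 7 and 9. At day 30 the ranges of -0.65 to 2.21 (median 1.05) and -0.87 to 1.43 (median 0.46) largely coincided.

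The log2 changes by the first Siglech probe were -1.30 (SE 0.29), -1.12 (SE 0.24), -1.44 (SE 0.36), -1.43 (SE 0.23) and -0.64 (SE 0.44) at the 5 days in order. With every probe fitted and no filter, 10.6%, 7.66%, 8.05%, 12.1% and 9.80% of probes were called lower at these days. The probe was called at day 7 (adjusted p = 0.00272) and day 25 (adjusted p = 0.00045), and narrowly missed the threshold at day 4 (adjusted p = 0.00838) and day 9 (adjusted p = 0.00472, all from limma). At day 7, however, it was well above background in 2 of 6 controls and 0 of 6 injected mice, and the bound on the fold was at least 1.04. The day 7 call was lost without control replicate 1, 4 or 6 or injected replicate 3, 4 or 5. On the 75th percentile the first probe changed by -0.78 at day 7 and -0.95 at day 25. On the median of detected probes it changed by -0.83 and -0.99, so that all 4 values were under 2-fold. With quantile normalization the changes were -1.04 and -1.18. Within the shared slides the change was -0.84, -1.44, -1.33 and -1.29 at days 7, 9, 25 and 30. No difference between days was detected in the change by the first probe (interaction, adjusted p = 0.613 from limma).

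The second Siglech probe, which ends in the repeated run, was bright on all 56 arrays and showed almost no change until day 30. Its log2 changes were 0.04 (SE 0.63), 0.03 (SE 0.12), -0.16 (SE 0.24) and -0.16 (SE 0.18) at days 4, 7, 9 and 25. At day 30 the controls ran from 7.34 to 9.18 (median 8.70) and the injected mice from 9.11 to 10.55 (median 10.14), with 4 of 6 above all controls. The change of 1.39 (SE 0.34, adjusted p = 0.00205 from limma) was called higher, and the call was lost without any one of 9 of the 12 mice or with a fixed block for the slide or the scan day. Within the shared slides the changes were 0.07, -0.18, -0.28 and 1.12 at days 7, 9, 25 and 30. In the controls alone the second probe moved by up to 2.09 between days (adjusted p = 8.21e-07 from limma).

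The 2 Siglech probes did not vary together. Their correlation was -0.13 across the 56 arrays and -0.06 after the means of the 10 groups were removed. Of the 12 probes of other genes that share any run of 16 bases with the second Siglech probe, 6 hold the marked run. Of the same 12, 9 were well above background on 75% of the arrays. The second Siglech probe correlated with these 9 at a median of 0.26 (range -0.09 to 0.76). Those arrays share labeling, scanning and centering, so the correlations are descriptions only. Whether the marked run, or other bases of the second probe that recur in other probes, contributed to its signal was not tested.

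**Figure D1:**
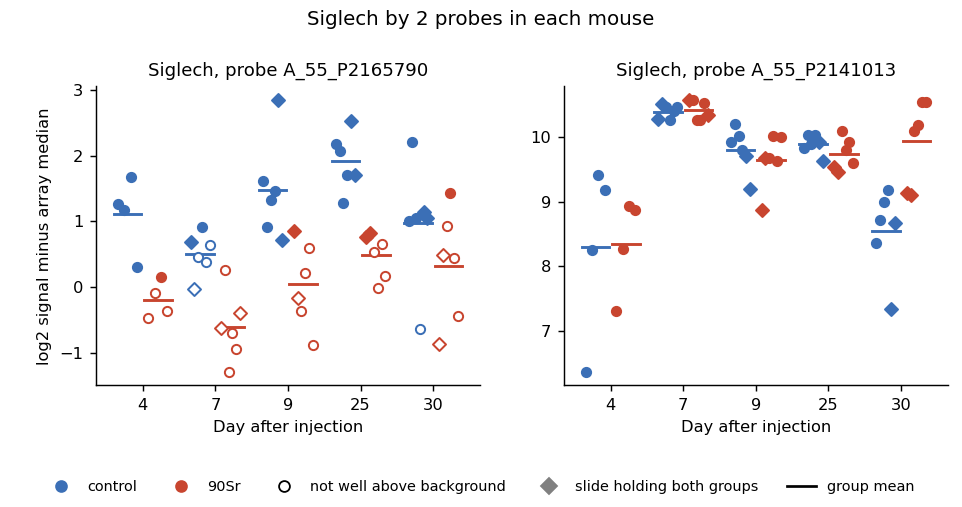
Level of Siglech in each mouse by its first probe (left, A_55_P2165790) and its second probe (right, A_55_P2141013), as log2 signal minus the array median, by day after injection. Points are mice, bars are group means, open symbols were not well above background and diamonds lay on a slide holding both groups. By the first probe the means of injected mice lie below those of controls, and by the second, bright on all 56 arrays, they differ little before day 30 and lie above them at day 30.

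Zbtb46 was the only gene of the set that was called higher by a probe free of such a run. At day 4 the controls were at 8.21, 8.60, 8.003 and 8.15 and the injected mice at 8.43, 8.63, 8.86 and 8.69, which overlapped. At day 7 the controls ran from 7.11 to 7.87 (median 7.58) and the injected mice from 7.72 to 8.75 (median 8.02), and at day 9 from 8.40 to 8.94 (median 8.74) and from 8.07 to 9.64 (median 8.58). The log2 changes were 0.41 (SE 0.18), 0.56 (SE 0.20) and -0.01 (SE 0.26), and none was called.

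At the late days the difference in Zbtb46 was larger. At day 25 the controls ran from 6.35 to 7.81 (median 7.05) and the injected mice from 7.57 to 9.04 (median 8.27), and the log2 change of 1.15 (SE 0.31, adjusted p = 0.00404 from limma) was not called. It was called without control replicate 6 or injected replicate 2. At day 30 the controls were at 6.35 to 8.06 (median 7.44) and the injected mice at 8.37 to 9.17 (median 8.66), with no overlap. The day 30 change of 1.40 (SE 0.28, adjusted p = 0.000473 from limma) was called, and the call was lost with a fixed block for the slide or for the scan day. Within the shared slides the changes were 0.98, 0.40, 0.70 and 1.11 at days 7, 9, 25 and 30.

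The effect of 90Sr on Zbtb46 differed between days (interaction, adjusted p = 0.0148 from limma), as did that on 22.5% of all genes. The mean effect of days 25 and 30 exceeded that of days 4, 7 and 9 by 0.95 (SE 0.24, adjusted p = 0.00459), a contrast that 15.1% of genes passed. Control levels of Zbtb46 moved as well, by up to 1.58 between days (adjusted p = 3.68e-06 from limma), and the injected groups lay between 8.10 and 8.70 on average while the control groups lay between 7.13 and 8.71. Treating slides as a random block, the interaction did not pass (adjusted p = 0.211 for Zbtb46 and 0.139 for the second Siglech probe).

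Another Zbtb46 probe was never well above background, and its centered signal still rose by 0.36, 0.36, 0.86, 0.81 and 1.20 at the 5 days. Some erythroid genes were higher on these arrays too. Of 10 such genes all passed the filter on dim probes and 7 both filters, and 0, 1, 4, 0 and 4 of these were called higher at the 5 days in order. The median change of the erythroid genes was 0.61, 0.62, 1.12, 0.58 and 0.86, beside 0.41, 0.56, -0.01, 1.15 and 1.40 for Zbtb46. Their summed level was 15.8 to 17.1 in controls and 16.6 to 17.7 in injected mice. The part of erythroid cells and of the centering in the change of Zbtb46 was not tested.

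Clec9a, the lectin by which type 1 dendritic cells sense dead cells, passed the filter on dim probes only. In that larger fit, 19.5%, 14.6%, 18.1%, 25.5% and 31.7% of genes were called in either direction at the 5 days. Its day 4 controls were at 1.57, 1.18, 1.75 and 0.93 and the injected mice at 1.79, 1.39, 0.80 and 2.04, with the groups mixed. At day 7 injected mice were higher, from 1.26 to 2.28 (median 1.71) against 0.85 to 1.56 (median 1.24), and at day 25 they were lower, from 0.07 to 0.92 (median 0.81) against 1.26 to 1.86 (median 1.46). Thus 5 of 6 injected mice lay above all controls at day 7 and 6 of 6 below them at day 25.

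The log2 changes of Clec9a were 0.15 (SE 0.28), 0.54 (SE 0.18), -0.23 (SE 0.27), -0.85 (SE 0.19) and -0.18 (SE 0.21) at the 5 days in order. At day 25 its p passed the limit (adjusted p = 0.00142 from limma), but the change was under 2-fold and Clec9a was not called. The effect differed between days (interaction, adjusted p = 0.0117), which 22.9% of genes did in this fit. The late effect lay below the early one by 0.67 (SE 0.21, adjusted p = 0.0273 from limma), where 12.8% of genes passed in either direction. Clec9a was well above background in 28 of 28 controls and in 17 of 28 injected mice, among them 2 of 6 at day 25 and 1 of 6 at day 9, so the sizes rest on dim spots. Within the shared slides the changes were 0.29, -0.67, -0.64 and -0.06 at days 7, 9, 25 and 30.

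Flt3, the receptor for the main growth factor of dendritic cells, which early progenitors carry too, was not called at any day. Its day 4 controls were at 1.99, 1.73, 1.87 and 1.16 and the injected mice at 1.19, 0.84, 1.30 and 0.75. At day 7 the controls ran from 1.11 to 1.65 (median 1.38) and the injected mice from 0.70 to 1.18 (median 0.99), with 5 of 6 below all controls. The groups overlapped at the later days too. The changes were -0.67 (SE 0.21), -0.40 (SE 0.13), -0.25 (SE 0.24), -0.32 (SE 0.18) and -0.34 (SE 0.21) at the 5 days, and -0.40, 0.23, -0.08 and -0.55 within the shared slides of days 7, 9, 25 and 30.

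Xcr1, the receptor for the chemokine Xcl1 on type 1 dendritic cells, ranged from -2.79 to -0.48 and was not well above background on any of the 56 arrays. No level or change of Xcr1 can be given for these mice.

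**Figure D2:**
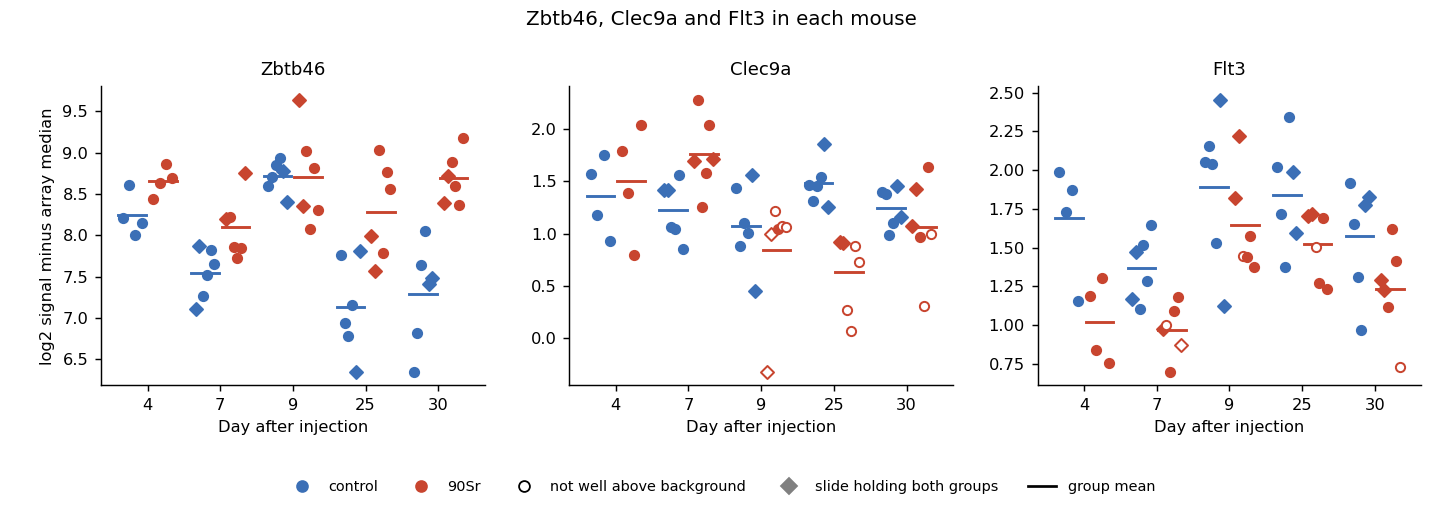
Level of Zbtb46, Clec9a and Flt3 in each mouse, as log2 signal minus the array median, by day after injection. Points are mice, bars are group means, open symbols were not well above background and diamonds lay on a slide holding both groups. Zbtb46 in injected mice lies between 7.57 and 9.64 while the controls are lower at days 25 and 30, and Clec9a is higher at day 7 and lower at day 25.

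**Figure D3:**
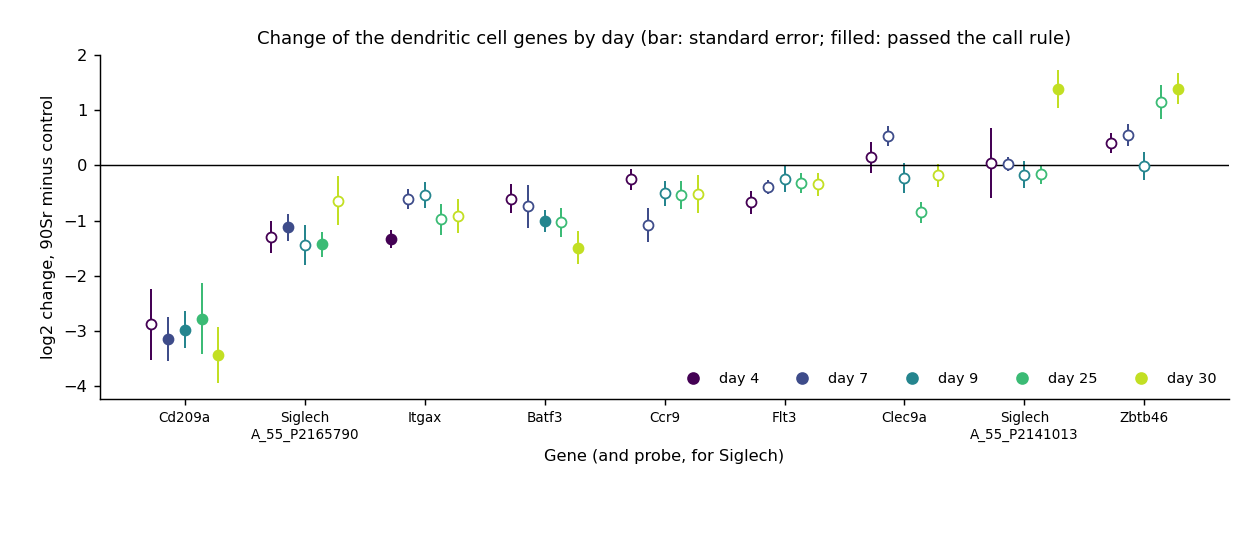
Log2 change from control to 90Sr-injected mice of the measured genes by day after injection, with bars of 1 standard error and filled points where the gene was called. The first Siglech probe is A_55_P2165790 and the second A_55_P2141013. Cd209a stays between -3.44 and -2.78, and Zbtb46 and the second Siglech probe reach 1.40 and 1.39 at day 30.

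The differences among the genes were then measured within each mouse, where a constant added to an array cancels. The log2 level of one item minus that of another was compared between the groups of a day by a two-sided exact permutation test, over 36 pairs of the 8 measured genes (Siglech by each of its probes) and 5 days, 180 tests in all. The smallest p such a test can give is 0.0286 at day 4 and 0.00216 at the other days. Cd209a was lower relative to the other items in 37 of 40 tests and higher in 0 at an adjusted p under 0.05 over the 180 tests, by -4.84 to -1.35. The 3 that did not pass were against Itgax at day 4 (-1.55), against the second Siglech probe at day 4 (-2.93) and against the first at day 25 (-1.35). Zbtb46 was higher relative to the others in 30 of 40 tests and lower in 0.

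Relative to the mean of a list of cell type genes in the same mouse, 135 further tests were made. At day 4 the smallest p a split of the mice allows became 0.0543 after adjustment over the 135 tests, so nothing could pass there, and counts are given for the 4 later days with ranges over all 5. Cd209a was lower than the monocyte list at 4 of the 4 days (-2.64 to -1.82), than the T cell list at 4 (-3.05 to -2.24) and than the B cell list at 2 (-1.57 to -0.76). Itgax passed against the monocyte list at none of them (-0.42 to 0.33) and was higher than the B cell list at 4 (0.63 to 1.43). Batf3 was lower than the monocyte list at 1 day, day 30 (-0.70). Flt3 passed against the T cell list at none (-0.13 to 0.25). The first Siglech probe passed against neither the monocyte list (-0.58 to 0.16) nor the B cell list (0.46 to 1.35, with an adjusted p of 0.0522 at day 30 by the exact permutation test). Zbtb46 was higher than the monocyte list at 3 of the 4 days.

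Markers of other blood cells moved on the same arrays. Of 17 monocyte genes 16 were past the filter on dim probes and 15 past both filters, and 5 to 8 of these were called lower on a given day, with a median change of -1.14 to -0.80. The 16 genes differed widely, with median changes over the days from -2.53 (Ccr2) to 0.75 (Cd14). Their summed level ran from 9.69 to 10.85 in controls and from 8.73 to 10.65 in injected mice. Of 16 B cell genes 14 and 13 passed the same filters, 11 were lower at all 5 days, and the medians were -2.43 to -1.74. Their summed level ran from 9.88 to 11.19 in controls and from 7.58 to 9.83 in injected mice. Of 12 natural killer cell genes 11 passed both filters, 0 or 1 of them was lower on a given day, and their summed level was 8.23 to 9.86 in controls and 7.60 to 9.34 in injected mice. The part of monocytes, B cells and natural killer cells in the changes of the 9 genes was not tested beyond the differences just given.

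Further genes of dendritic cells were taken from 7 lists by role. Of 90 genes listed, 76 passed the filter on dim probes and 68 both filters, and 25 of the 68 were lower at all 5 days, 43 lower at 1 or more days and 11 higher at 1 or more days, where 8.40%, 34.4% and 28.5% of all genes were. Over all genes past the filter on dim probes the median change was between -0.10 and 0.12. Many of the genes below are used by B cells as well, in some cases more than by dendritic cells.

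Genes of antigen presentation had the lowest medians, -2.25 to -1.66, and 11 of 16 were lower at all 5 days. H2-Eb1, H2-Ab1 and H2-Aa, chains of MHC class II, had median changes over the days of -2.30, -2.29 and -2.21, and Cd74, the invariant chain that accompanies them, of -2.18. The costimulatory genes Cd86 and Cd83 were lower at all 5 days as well. Ciita, the activator of class II transcription, was lower at 3 days, and Fscn1, an actin-bundling protein of mature dendritic cells, at none.

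Of 15 tested genes of the plasmacytoid list, 6 were lower at all 5 days, 8 at 1 or more, and 5 were higher at 1 or more, with list medians of -0.69 to -0.26. The 6 were the transcription factors Spib (median change -2.38), Bcl11a (-1.71) and Tcf4, the surface protein Ly6d (-2.31), the endosomal receptor escort Unc93b1 (-1.89) and the phosphatase Ptprs. Spib, Bcl11a and Ly6d are also B-lineage genes. Higher at 2 days each were Runx2 (median change 0.94) and the inhibitory receptor Lair1 (0.89).

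In the conventional type 2 list, 4 of 11 tested genes were lower at all 5 days and 8 at 1 or more, with medians of -1.33 to -1.06. Those 4 were Irf4 (median change -2.30) and Relb (-1.34), transcription factors, the cytokine Ltb (-1.72) and the receptor Notch2 (-1.66). In the conventional type 1 list 3 of 11 were lower at all 5 days, the transcription factor Irf8 (-1.88), Wdfy4, which serves cross-presentation (-1.93), and the inhibitory receptor Btla (-1.89), and its medians were -0.69 to -0.45. Higher at 1 and 2 days were Snx22 (median change 0.70) and Cd24a (0.62). The list of growth factors and their receptors had medians of -1.37 to -0.70, with Ikzf1 lower at all 5 days (-1.32) and Stat5a, which acts downstream of GM-CSF, at 4 (-1.37). Flt3l, the ligand of Flt3, was not called at any day (median change -0.76).

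No decrease was called for the 2 relatives of Cd209a that could be tested. Of 6 other genes of the family on the list, only Cd209d and Cd209f passed the filters. Their median changes were 0.19 and 0.72, and the rest of the family was not tested. Among chemokine ligands, Xcl1, which binds Xcr1, was not called (median change -0.72), while Ccl17, made by dendritic cells, and Ccl25, which binds Ccr9, were each called higher at 1 day (median changes 0.53 and 0.37).

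**Figure D4:**
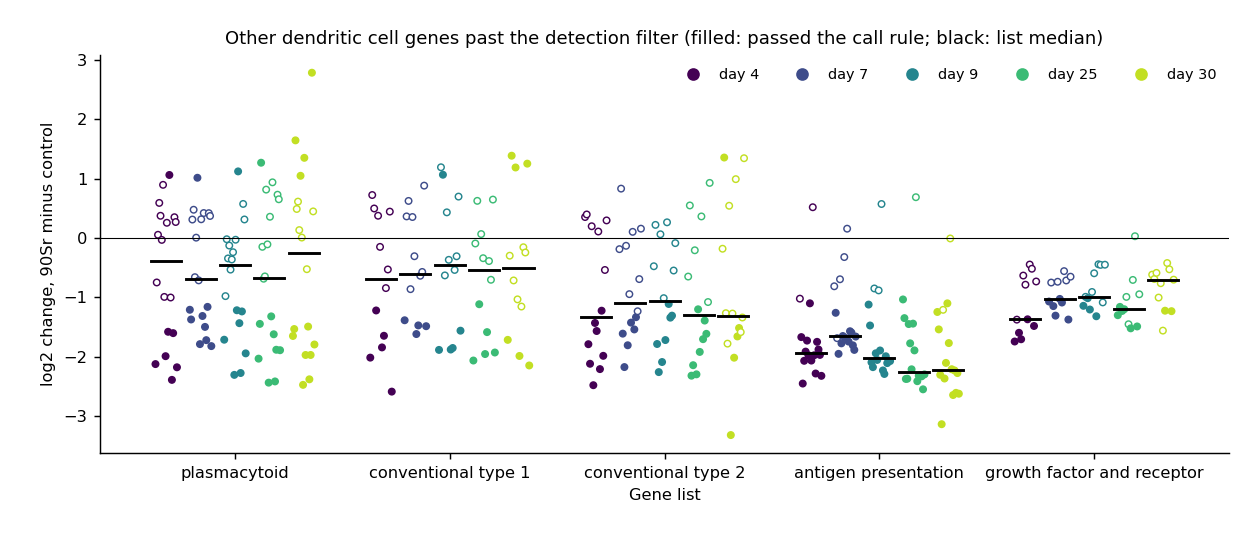
Log2 change from control to 90Sr-injected mice of the genes past the filter on dim probes in 5 lists of dendritic cell genes, by day after injection. Points are genes, filled where called, and black bars are list medians. Antigen presentation genes lie lowest, at -2.25 to -1.66, and the plasmacytoid and type 1 lists lie between -0.69 and -0.26.

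Mice of a group also varied together in some of the genes. After the means of the 10 groups were removed, the correlation over the 56 arrays was highest between Cd209a and Itgax (0.64), followed by Flt3 and the first Siglech probe (0.54) and Cd209a and Flt3 (0.44). It was lowest between Itgax and Zbtb46 (-0.45), and the median over 28 pairs without the second Siglech probe was 0.20. The arrays of a group share slides, and these values carry no test.

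Over all genes past the filter on dim probes, the 3 most like Cd209a in this measure were Ppfia4 (0.88), Lsr (0.87) and Cd302 (0.87). For Itgax they were Mocos (0.85), Tbkbp1 (0.85) and Fes (0.84), and for Batf3 they were Il3ra (0.65), Hip1 (0.63) and Rabl6 (0.63). For Flt3 the highest were Cd68 (0.72), Mfsd12 (0.72) and Akip1 (0.70), and for Clec9a they were Zcchc11 (0.74), Tax1bp3 (0.74) and 2810416G20Rik (0.74). Ccr9 had no close companion, with Tsta3 (0.64), Polr3c (0.58) and Tmem63a (0.57). The first Siglech probe was most like Egfbp2 (0.63), Itga7 (0.59) and Gbp6 (0.58). Zbtb46 had far closer ones, with Prl2a1 (0.97), Tas1r3 (0.97) and a probe named NAP018839-001 in the files (0.96). For the second Siglech probe they were Gm10856 (0.94) and the unnamed transcripts BI648893 (0.90) and A_55_P1996613 (0.90).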

How the data were processed

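The authors deposited, for each one-color array, the processed signal of each spot as an intensity, background-corrected by Agilent Feature Extraction (version 10.7 in the submitters' processing notes, 11.5.1.1 in the file headers) and not scaled between arrays. They also deposited a table of their own log2 values for the same arrays, already normalized. It holds a centering that differs from the median used here, was used as an alternative only, and reads Siglech by the first probe. Here intensities were turned into log2, spots of a probe averaged, and the median of the 43020 non-control spots subtracted per array.

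Probes were kept if fewer than 25% of arrays had them non-uniform or at background (18796 genes), and then if at least 20% of arrays were 1.5-fold away from the probe's median (14580 genes, 14579 at day 4). A gene took its brightest probe. Each day was fitted by itself with limma 3.58.1 in R 4.3.3, and differences between days with limma's F test in 1 fit of all 10 groups. A call needed an unadjusted p under 0.001 and a change of 2-fold, and Benjamini-Hochberg adjusted p were over all genes tested. Within-array differences and figures used Python 3.11.15 with NumPy 2.4.6 and pandas 2.3.3. The lower bound of a fold set the controls' mean against, per array, the higher of the probe's own signal and the lowest signal of a probe well above background.

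Samples were grouped by their labels, each array being 1 mouse, and the number of mice limits the precision. The 9 genes, the gene lists and the tests were chosen with earlier results of these data known. Named beside the 9 genes are, of each dendritic cell list, at most 4 genes called at all 5 days or with the largest median change, and the 3 genes most like each. Tcf4, Ptprs, Cd83, Cd86, Ciita, Fscn1 and Flt3l were named after their values were seen. For 13 of the 16 probes of the 9 genes the RefSeq table held the accession, each with the same symbol. The limma fits were tested on simulated data with independent normal noise, which held no slides and no background floor. The other steps were not tested in this way. Alternatives were other scalings, background correction, filters, probes, thresholds and tests, blocks for slide, scan day and replicate number, and each mouse left out in turn.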

Additional observations from a re-analysis of the deposited data

Results flagged for a closer look

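In 5 of 90 groups checked, 1 mouse lay far from the others of its group, a share of 5.56%, and chance alone does so in about 1 of 20. The ratio given is its gap to the nearest mouse over the range of the group. In Clec9a at day 9, injected replicate 1 stood at -0.32 with the others at 0.996 to 1.22 (ratio 0.856). The same mouse was low by the second Siglech probe, at 8.87 against 9.63 to 10.01 (ratio 0.668). In Ccr9 at day 7, control replicate 4 stood at 3.41 against 1.69 to 2.20 (ratio 0.706). In Itgax, control replicate 6 at day 7 was high, at 3.18 against 2.71 to 2.87 (ratio 0.643), and control replicate 4 at day 30 was low, at 2.36 against 3.22 to 3.51 (ratio 0.748).

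The effect of 90Sr differed between days in limma's F test of the interaction for Siglech by its second probe (adjusted p = 0.0212), Zbtb46 (0.0148) and Clec9a (0.0117). For Zbtb46 and the second Siglech probe the control groups differed between days as well.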

How the results depend on the processing

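The log2 change of Cd209a was below 0 under all 143 alternatives run over the 5 days, but its size ran from -5.04 to -0.91 at day 7 and from -3.50 to -0.53 at day 25 with each mouse kept. Changes of other genes that were small or close to 0 turned with the scaling, because each scaling moves all genes. The 75th percentile raised the median of all genes by 0.48, 0.35, 0.39, 0.48 and 0.19 at the 5 days in order, the median of detected probes by 0.41, 0.29, 0.29, 0.44 and 0.05 and quantile normalization by 0.13, 0.07, 0.08, 0.14 and -0.08. Spike-in scaling moved it by -0.62, -1.88, -1.09, -0.72 and -0.63.

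On the 75th percentile the log2 change was 0.22 for Ccr9 at day 4, 0.23 and 0.33 for the second Siglech probe at days 9 and 25, 0.38 for Zbtb46 at day 9, 0.15 and 0.16 for Flt3 at days 9 and 25, and 0.17 and 0.0086 for Clec9a at days 9 and 30. With the median of detected probes the same comparisons gave 0.15 for Ccr9, 0.12 and 0.28 for Siglech, 0.28 for Zbtb46, 0.0412 and 0.12 for Flt3 and, at day 9, 0.0605 for Clec9a. Quantile normalization turned Ccr9 at day 4 (0.17), Siglech at day 7 (-0.0875) and Flt3 at days 9 and 25 (0.12 and 0.0647). Spike-in scaling turned Siglech (-0.58 and -1.85), Zbtb46 (-0.21 and -1.32) and Clec9a (-0.47 and -1.35) at days 4 and 7. Normexp background correction gave -1.54, -0.52 and 0.88 for Siglech at days 4, 7 and 25, -1.20 and -0.00048 for Zbtb46 at days 4 and 7, -0.22 and 0.0412 for Clec9a at days 4 and 30, and 0.0082 for Flt3 at day 25.

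By the mean of its probes Siglech was at -0.63 and -0.55 at days 4 and 7. In the authors' values, which read its first probe, it was at -1.32, -1.09 and -0.75 at days 4, 7 and 30. Zbtb46 at day 9 was 0.40 with the slide as a fixed block and 0.0571 as a random block. Batf3 at day 7 was 0.28 with the slide and 0.0455 with the scan day as a fixed block. Leaving out each mouse in turn gave -0.60 to 0.41 for Siglech at day 4, -0.0019 to 0.0616 at day 7, -0.20 to 0.11 for Zbtb46 at day 9, -0.0286 to 0.38 and -0.35 to 0.0069 for Clec9a at days 4 and 9, and -0.0995 to 0.0363 for Itgax relative to monocyte genes at day 25. The cause was not tested.

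The numbers of the 6 genes called at the 5 days were 1, 1, 2, 1 and 4. Each alternative counted those of the 9 genes that it fitted. With spike-in scaling all 8 measured genes passed both filters, and 4, 6, 5 and 6 of these 8 were called at days 4, 7, 9 and 25. In that fit 6349, 14231, 7322 and 7780 of 18796 genes (18795 at day 4) were called lower at these days. The numbers called were 0 at day 4 and 1 at day 9 on the 75th percentile and on the median of detected probes. They were 0, 1 and 2 at days 4, 9 and 30 with quantile normalization. With normexp, which called few genes lower, they were 0, 0, 1, 0 and 1. In 1 fit of all 10 groups they were 2, 2, 1 and 2 at days 4, 7, 9 and 25, and in the authors' values 2 at each of days 4, 7 and 25. At an adjusted p under 0.05 they were 2, 2 and 3 at days 4, 7 and 25 with 2-fold and 2, 4 and 4 without a minimum. Array weights gave 2 at day 4. With the slide as a fixed block they were 0, 1, 0 and 0 at days 7, 9, 25 and 30, as a random block 0 at day 25, and with the scan day 0 at day 30. A stricter filter gave 0, 1 and 2 at days 7, 9 and 25, a t-test with equal variances 0 at day 25, and Siglech by its first probe 2 at days 7 and 25. With each mouse left out they ran from 1 to 2 at days 4, 7 and 9 and from 0 to 2 at day 25.

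The effect differed between days for 2 of the 6 genes, for 0 on the 75th percentile or with the slide as a random block, for 1 in the authors' values or with quantile normalization, and for 1 to 2 with each mouse left out, with 1 without control replicate 5 or injected replicate 5 or 6 of day 30. Control days differed for 3 of the 6, and for 5 in the authors' values. Other dendritic cell genes lower at all 5 days numbered 25, and 16 on the 75th percentile or with quantile normalization. Under both of these scalings fewer genes of the whole array were called lower at each day. The share of all genes lower at all 5 days is not given for them, so the 16 cannot be set against it.

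Replicate numbers in the labels are shared by the groups of a day. The deviations of same-numbered mice correlated at 0.31, 0.08, 0.12 and 0.20 at day 4 and at -0.28 to 0.33 at the other days. At day 4 each of the 4 mice was most like its own number, a hint from the data only, since 1 of those correlations was low and the labels do not say that a number marks a pair. With the replicate block, 2 of the 6 genes were called at day 4, where Cd209a was gained, and 1 at day 9, where Batf3 was lost, and the second Siglech probe was lost at day 30. By the first Siglech probe the replicate block gained days 4 and 9 and lost day 7. The alternatives with the scan day, with the first Siglech probe and for Flt3 and Clec9a were chosen after seeing the data. Dim spots set the limit for Cd209a, Batf3, Clec9a and the first Siglech probe, which were near background in many injected mice.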
